A study of Mus musculus with 9 samples.

Results

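Lumican (Lum), decorin (Dcn) and osteoglycin (Ogn) are small leucine-rich proteoglycans of the extracellular matrix, and Cdh11 encodes cadherin 11, a cell adhesion molecule of osteoblasts and other mesenchymal cells. They were examined here for their response to castration in mouse bone and bone marrow. Every array feature to which the platform annotation gave 1 of these 4 symbols alone was taken, with symbols brought up to date by gene ID. This gave 5 features among the 11552 on the array: 1 each for Lum, Ogn and Cdh11, and 2 for Dcn. All 5 passed the filter for testing, which 8885 features passed, and 43 of their 45 values were present.

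Small leucine-rich proteoglycans carry a protein core of leucine-rich repeats, to which glycosaminoglycan chains can be attached, and many of them bind collagen fibrils and shape how the fibrils assemble. Decorin carries a chondroitin or dermatan sulphate chain, binds type I collagen and also binds TGF-beta. Lumican is a keratan sulphate member of the family, and osteoglycin, also called mimecan, was first described from bone. Cadherin 11, known also as OB-cadherin, joins mesenchymal cells to each other through calcium-dependent contacts and is linked to the actin cytoskeleton through catenins. Castration withdraws testicular androgens, and in rodents it is known to raise bone turnover and to lower bone mass.

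Each of the 9 arrays was hybridised with RNA of a castrated and of a sham-operated C57BL/6 mouse, 1 labelled with Cy5 and the other with Cy3. The old group held 3 arrays of specimens labelled bone marrow from mice aged 59 weeks, the young bone group 3 arrays of bone from mice aged 17 weeks, and the young marrow group 3 arrays of bone marrow from mice aged 17 weeks. All castrated mice had been operated at 7 weeks, and the controls were sham-operated. Femur, tibia and humerus were collected, and within a group each array stood for a separate pair of mice. Whether the same young pairs gave both bone and marrow is not stated. Removal of marrow from the bone is described for the young mice, so the old specimens may or may not include bone. On 6 arrays Cy5 labelled the castrated mouse. On the other 3, called swapped here, Cy3 did: old replicate 2, young bone replicate 3 and young marrow replicate 2.

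The deposited values were log ratios, read here as log2 ratios. The sources used here give neither the log base nor the direction of the ratio, while the labels describe all 9 arrays as castrated against sham. The ratio was therefore read as castrated over sham on every array, which is likely but not certain. A second, channel reading takes the value as Cy5 over Cy3 and turns the sign of the 3 swapped arrays, and its values are given beside the first where they matter. A ratio of 2 channels gives no level of expression, so the labelled tissues could not be checked against marker levels, and none of the 13 osteoblast and osteocyte marker genes listed had a singly named feature. In bulk RNA, fewer cells of a type and less RNA per cell cannot be told apart.

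The arrays held 8290 to 10995 values each. Old replicate 1 had the widest spread, with an SD over features of 0.4545 and a median of -0.12 among features tested. On the other 8 arrays the SD was 0.192 to 0.294 and the median -0.04 to 0.01. The arrays of a group correlated with each other at r between -0.20 (young bone replicates 2 and 3) and 0.57 (old replicates 1 and 2) across 7544 features, which are not independent replicates. For Lum, Dcn, Ogn and Cdh11, results that rest on old replicate 1 or young bone replicate 2 are given below with and without them.

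None of the 5 features passed an adjusted p of 0.05 in any comparison (limma, Benjamini-Hochberg over 8885 features), under either reading. At an unadjusted p under 0.05, 1 of the 5 passed in young bone, the first Dcn feature, and 0 passed in the old group, in young marrow or in the average of the groups. Over all features under the castrated-over-sham reading, 0.732% passed the adjusted threshold in the old group, 0.259% in young bone, 0.844% in young marrow and 4.04% in the average. At the unadjusted threshold these shares were 18.2%, 8.78%, 10.5% and 16.2%. Under the channel reading 0 features of the whole array passed the adjusted threshold in each of these comparisons, and 2.28% in the old group, 6.82% in young bone, 0.754% in young marrow and 4.7% in the average passed the unadjusted one. A single feature of 5 at the unadjusted threshold, beside 8.78% of all features, is no result about these genes as a group.

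**Figure D1:**
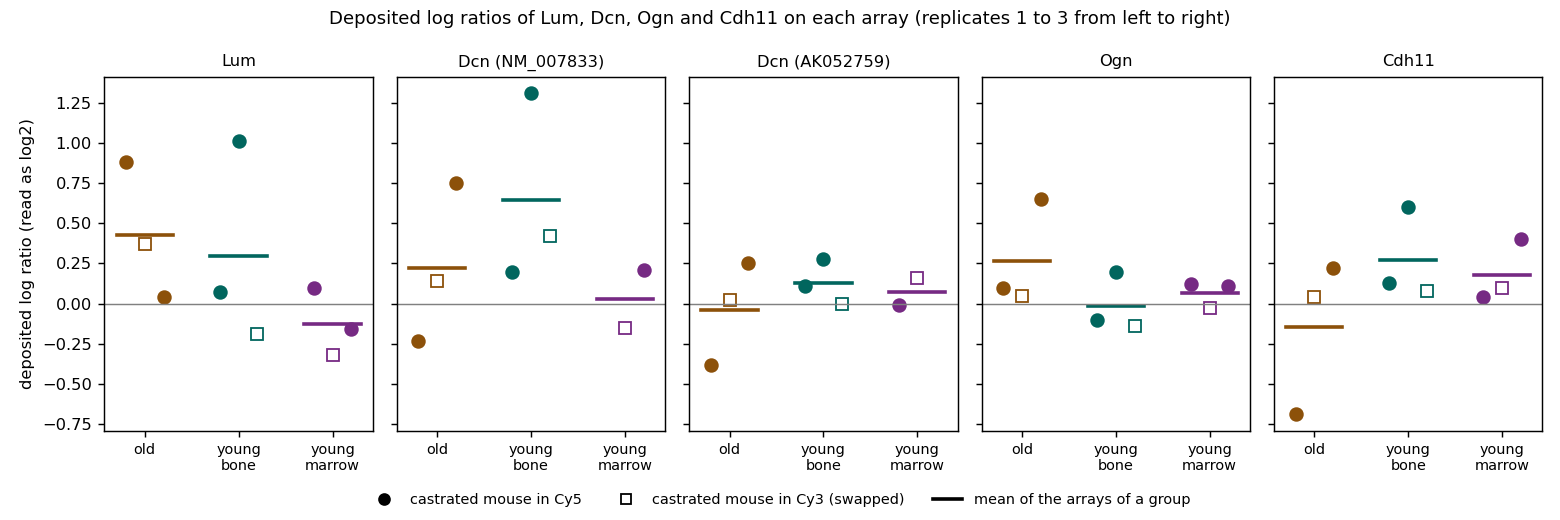
Deposited log ratio (vertical axis, read as log2) of the 5 features on each array of the old, young bone and young marrow groups, with filled circles for arrays with the castrated mouse in Cy5, open squares for swapped arrays and bars for group means. Of the features shown, 4 reach their highest value on young bone replicate 2 (1.31 for the first Dcn feature, titled NM_007833) and both Dcn features and Cdh11 their lowest on old replicate 1 (-0.69 for Cdh11).

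Lum encodes the lumican core protein. Its log ratio was 0.88, 0.37 and 0.04 on old replicates 1, 2 and 3, against 0.07, 1.01 and -0.19 on young bone replicates 1, 2 and 3, and 0.10, -0.32 and -0.16 on young marrow replicates 1, 2 and 3. All 3 old arrays were above 0, which held for 15.7% of the features with 3 values in that group, while the young bone and young marrow values lay on both sides of 0 and the ranges of all 3 groups overlapped. The means were 0.43 ± 0.42 in the old group, 0.30 ± 0.63 in young bone and -0.13 ± 0.21 in young marrow (SD, n = 3 each). In young bone, replicate 2 stood far above the other arrays of its group. The fitted ratio of the old group was 0.37 (SE 0.20, 95% interval -0.06 to 0.80, limma adjusted p = 0.322), and that of young bone was 0.24 (SE 0.20, adjusted p = 0.898). In young marrow the fitted ratio was -0.19 (SE 0.20, adjusted p = 0.732). Under the channel reading the same fits gave 0.14, 0.38 and 0.04, so the sign in young marrow turned.

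Dcn encodes the decorin core protein and was the single gene with 2 features, annotated to NM_007833 (the first) and AK052759 (the second). The first Dcn feature read -0.23, 0.14 and 0.75 on old replicates 1, 2 and 3, against 0.20, 1.31 and 0.42 on young bone replicates 1, 2 and 3, and -0.15 and 0.21 on young marrow replicates 2 and 3. It was above 0 on all 3 young bone arrays, as were 10.6% of the features with 3 values there, and its old and young marrow values lay on both sides of 0. The means were 0.22 ± 0.49 in the old group (SD, n = 3), 0.64 ± 0.59 in young bone (SD, n = 3) and 0.03 ± 0.25 in young marrow (SD, n = 2). In young bone the fitted ratio was 0.60 (SE 0.22, 95% interval 0.11 to 1.09, unadjusted p = 0.0212, limma adjusted p = 0.409), which ranked 459 by p among 8885 features. Without young bone replicate 2 this ratio was 0.31, and under the channel reading it was 0.27 (adjusted p = 0.832). The old and young marrow fits were 0.18 (SE 0.22, adjusted p = 0.668) and 0.03 (SE 0.26, adjusted p = 0.971).

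The second Dcn feature stayed closer to 0. It read -0.38, 0.02 and 0.25 on old replicates 1, 2 and 3, against 0.11, 0.28 and 0.00 on young bone replicates 1, 2 and 3, and -0.01 and 0.16 on young marrow replicates 1 and 2. The means were -0.04 ± 0.32 in the old group (SD, n = 3), 0.13 ± 0.14 in young bone (SD, n = 3) and 0.07 ± 0.12 in young marrow (SD, n = 2). Its highest and lowest arrays were those of the first feature, but its range was 0.66 against 1.54 for the first. The first feature lay above the second on 6 of the 7 arrays that had both, by 0.15, 0.12 and 0.50 in the old group and by 0.09, 1.03 and 0.42 in young bone, and below it on young marrow replicate 2, where the difference of first minus second was -0.31. The fitted ratios of the second feature were -0.04 in the old group (SE 0.13), 0.13 in young bone (SE 0.13) and 0.07 in young marrow (SE 0.15), with limma adjusted p of 0.891, 0.947 and 0.864. The probe sequences behind the 2 features were not used here, so which of them follows decorin mRNA more closely was not tested.

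Ogn encodes osteoglycin. Its log ratio was 0.10, 0.05 and 0.65 on old replicates 1, 2 and 3, against -0.10, 0.20 and -0.14 on young bone replicates 1, 2 and 3, and 0.12, -0.03 and 0.11 on young marrow replicates 1, 2 and 3. The old arrays were all above 0, but only replicate 3 stood outside the range of the other groups. The means were 0.27 ± 0.33 in the old group, -0.01 ± 0.19 in young bone and 0.07 ± 0.08 in young marrow (SD, n = 3 each). Unlike the other features, Ogn was highest on old replicate 3, as were 6.89% of the features with 9 values, and not on young bone replicate 2. The fitted ratio was 0.23 in the old group (SE 0.12, 95% interval -0.03 to 0.49, limma adjusted p = 0.306), -0.05 in young bone (SE 0.12, adjusted p = 0.9998) and 0.03 in young marrow (SE 0.12, adjusted p = 0.926). Without old replicate 3 the ratio of the old group was 0.08. Under the channel reading the fits were 0.21, 0.06 and 0.06.

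Cdh11 had a log ratio of -0.69, 0.04 and 0.22 on old replicates 1, 2 and 3, against 0.13, 0.60 and 0.08 on young bone replicates 1, 2 and 3, and 0.04, 0.10 and 0.40 on young marrow replicates 1, 2 and 3. Its value was above 0 on 8 of 9 arrays, the exception being old replicate 1, and 5.2% of the features with 9 values had at least 8 above 0. It was thus above 0 on all 3 young marrow arrays, as were 20.6% of the features with 3 values there. The groups overlapped on the other arrays. The means were -0.14 ± 0.48 in the old group, 0.27 ± 0.29 in young bone and 0.18 ± 0.19 in young marrow (SD, n = 3 each). The fitted ratios were -0.15 (SE 0.17, limma adjusted p = 0.635) in the old group, 0.26 (SE 0.17, adjusted p = 0.797) in young bone and 0.17 (SE 0.17, adjusted p = 0.725) in young marrow. Without old replicate 1 the ratio of the old group was 0.13, on the other side of 0. The channel reading gave -0.20, 0.18 and 0.08.

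**Figure D2:**
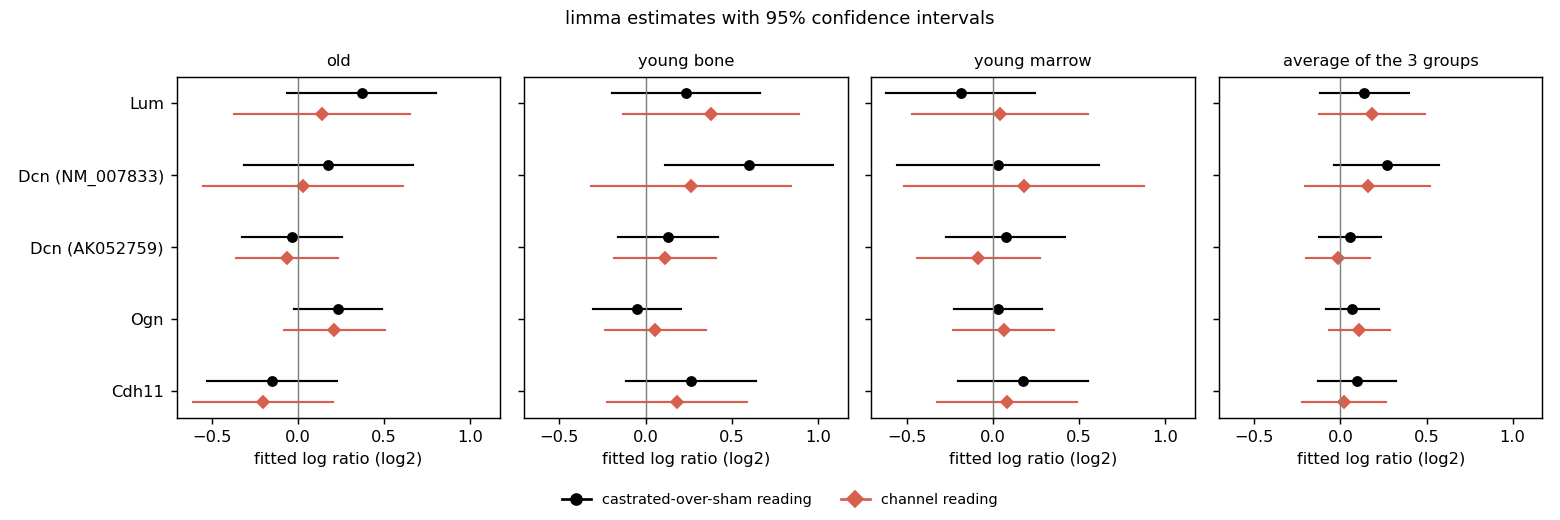
Fitted log ratio (horizontal axis, log2) with its 95% confidence interval for each of the 5 features in the old group, young bone, young marrow and their average, with black circles for the castrated-over-sham reading and red diamonds for the channel reading. The interval of the first Dcn feature in young bone, 0.11 to 1.09, lies above 0 under the castrated-over-sham reading and spans 0 under the channel reading, where it runs from -0.32 to 0.85.

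Averaged over the 3 groups with equal weight, the first Dcn feature had the highest fitted ratio, 0.27 (SE 0.14, 95% interval -0.04 to 0.57, limma adjusted p = 0.390). Lum followed with 0.14 (SE 0.12, adjusted p = 0.672), Cdh11 with 0.095 (SE 0.10, adjusted p = 0.766), Ogn with 0.07 (SE 0.07, adjusted p = 0.733) and the second Dcn feature with 0.06 (SE 0.08, adjusted p = 0.828). The 5 intervals all include 0 and overlap each other. The median over all features tested was 0.00 to 2 decimals. By the channel reading the averages were 0.16 for the first Dcn feature, 0.19 for Lum, 0.02 for Cdh11, 0.11 for Ogn and -0.01 for the second Dcn feature, so their order depended on the reading.

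By dye layout, the means of the deposited ratio over the 6 arrays with the castrated mouse in Cy5 and the 3 swapped arrays were 0.32 and -0.05 for Lum, 0.45 and 0.14 for the first Dcn feature (n = 5 and 3), and 0.18 and -0.04 for Ogn. They lay close together for the second Dcn feature, at 0.05 (n = 5) and 0.06, and for Cdh11, at 0.12 and 0.07. The dye term was 0.18 for Lum (SE 0.12, limma adjusted p = 0.745) and 0.11 for Ogn (SE 0.07, adjusted p = 0.745). It was 0.13 for the first Dcn feature, 0.00 for the second and 0.02 for Cdh11, and 0 of the 5 features passed, as did 0% of all features. At an unadjusted p under 0.05, 0 of the 5 and 6.56% of all features passed. On the swapped arrays Lum and Ogn were both above 0 on old replicate 2, at 0.37 and 0.05, and below 0 on young bone replicate 3 and young marrow replicate 2. With the channel reading 0 of the 5 and 2.6% of all features passed for the dye term, and 0 of the 5 and 13.7% at an unadjusted p under 0.05.

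The old group was set against young marrow to ask whether the response to castration differed between them. All castrated mice were operated at the same age, so age and time since castration cannot be told apart between old and young groups. The old specimens may also hold bone. The Lum ratio was 0.56 higher in the old group than in young marrow (SE 0.27, 95% interval -0.04 to 1.16, unadjusted p = 0.0652, limma adjusted p = 0.357), the largest of the 5 differences. Ogn followed with 0.20 (SE 0.16, adjusted p = 0.542) and the first Dcn feature with 0.15 (SE 0.34, adjusted p = 0.844), while the second Dcn feature gave -0.11 (SE 0.20, adjusted p = 0.797) and Cdh11 -0.32 (SE 0.24, adjusted p = 0.508). None of the 5 passed, as for 0% of all features, and 0 of the 5 against 14.5% of all features passed at an unadjusted p under 0.05. The Cdh11 difference was -0.02 without old replicate 1, the Ogn difference was 0.03 without old replicate 3, and those of the Dcn features changed sign with the array left out (from -0.08 to 0.41 for the first and from -0.26 to 0.06 for the second). The median of this difference over all features tested was -0.06. The channel reading gave 0.10 for Lum and -0.28 for Cdh11, with 0 of the 5 and 0.754% of all features under an unadjusted p of 0.05.

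The old group was also set against young bone, since it may hold bone. Ogn was 0.28 higher (SE 0.16, 95% interval -0.07 to 0.63, limma adjusted p = 0.693) and Lum 0.13 higher (SE 0.27, adjusted p = 0.901). The first Dcn feature gave a difference of -0.42 (SE 0.30, adjusted p = 0.733), Cdh11 one of -0.41 (SE 0.24, adjusted p = 0.693) and the second Dcn feature one of -0.17 (SE 0.18, adjusted p = 0.803). In this comparison 0 of the 5 passed, against 0.0113% of all features, and at an unadjusted p under 0.05 0 of the 5 against 6.63%. Without old replicate 1 the Cdh11 difference was -0.11, so most of its size rested on that array. The Ogn difference was 0.11 without old replicate 3. That of the first Dcn feature was -0.13 without old replicate 1, -0.67 with old replicate 3 left out, -0.10 without young bone replicate 2 and -0.72 without young bone replicate 1. The Lum difference had no stable sign, running from -0.06 to 0.46 over the arrays left out and standing at -0.24 under the channel reading. Under the channel reading 0 of the 5 and 4.09% of all features were under an unadjusted p of 0.05, and 0% passed the adjusted threshold.

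Young bone against young marrow compared the tissues at 1 age. The fit took their arrays as independent, while whether the same mice gave both tissues is not stated. The first Dcn feature was 0.57 higher in young bone (SE 0.34, 95% interval -0.19 to 1.33, limma adjusted p = 0.957) and Lum 0.42 higher (SE 0.27, 95% interval -0.18 to 1.02, adjusted p = 0.957). Cdh11 differed by 0.09 (SE 0.24), the second Dcn feature by 0.06 (SE 0.20) and Ogn by -0.08 (SE 0.16), with adjusted p between 0.966 and 0.984. Here 0 of the 5 and 0% of all features passed, and 0 of the 5 and 5.12% at an unadjusted p under 0.05 (0 of the 5 and 1.67% under the channel reading). Without young bone replicate 2 the differences were 0.28 for the first Dcn feature and 0.10 for Lum. The intervals of both differences include 0 and reach past 1, that is, past a doubling on the log2 scale.

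**Figure D3:**
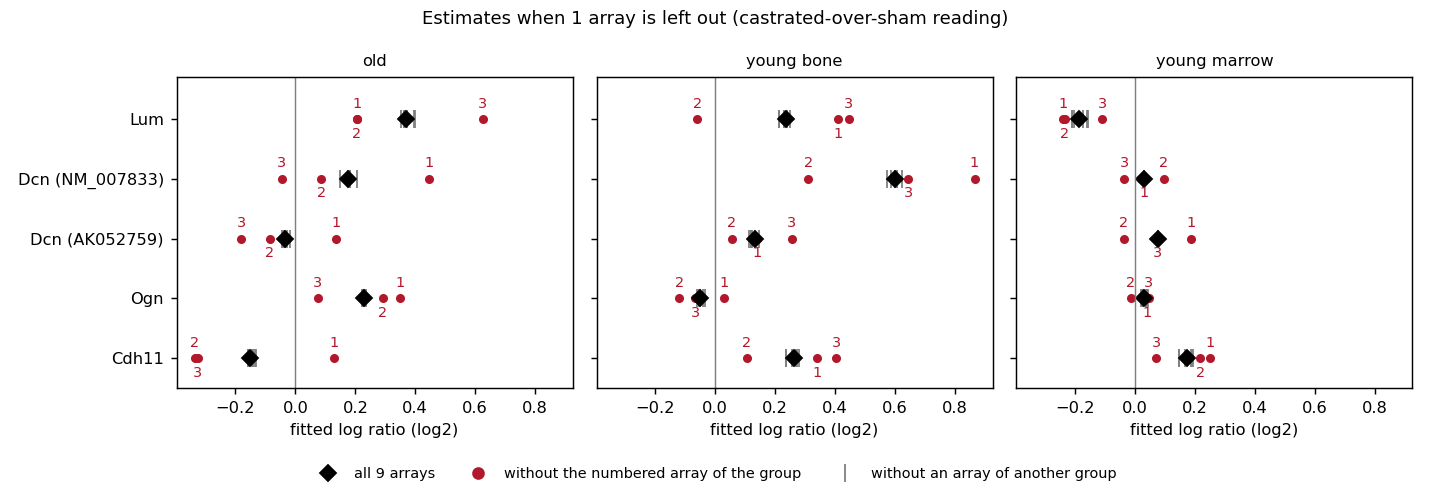
Fitted log ratio (horizontal axis, log2, castrated-over-sham reading) of each feature with all 9 arrays (black diamonds), without the numbered array of the group (red circles) and without an array of another group (grey ticks). The Lum ratio in the old group runs from 0.20 without replicate 1 to 0.63 without replicate 3, and the first Dcn feature in young bone from 0.31 without replicate 2 to 0.87 without replicate 1.

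Single arrays set much of these values. Leaving out old replicate 3, on which Lum was lowest of the group, gave a Lum ratio of 0.63 in the old group (limma adjusted p = 0.0408) and a difference of 0.84 from young marrow (adjusted p = 0.0456), both past the threshold. In that refit 15% of all features passed in the old group and 9.96% in old minus young marrow, against 0.732% and 0% with all 9 arrays, so the calls were not particular to Lum. Leaving out old replicate 1 gave 0.20 and 0.38. For Cdh11 and both Dcn features the same arrays acted the other way: without old replicate 1 their ratios in the old group were 0.13, 0.45 and 0.13, and with old replicate 3 left out they were -0.33, -0.045 and -0.18. Without young bone replicate 2 the ratios in young bone were -0.06 for Lum, 0.05 for the second Dcn feature and 0.10 for Cdh11.

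**Figure D4:**
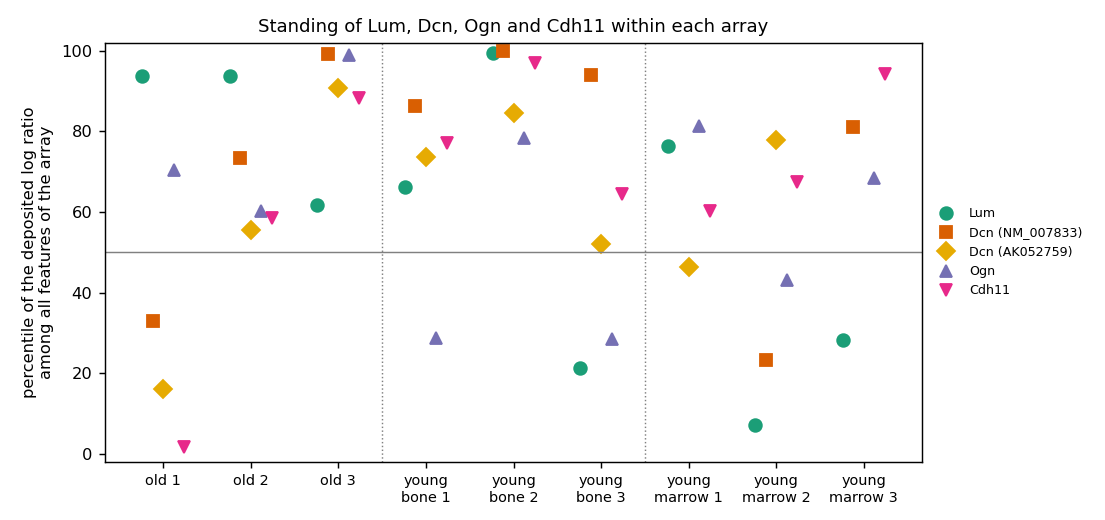
Percentile of each feature among all features with a value on the same array (vertical axis, 50 being the middle), for the 9 arrays in groups of old, young bone and young marrow. Young bone replicate 2 holds 3 of the 5 features above percentile 96, while Cdh11 lies at percentile 1.56 on old replicate 1 and Lum at percentile 93.7 on the same array.

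The SD over features differed between arrays, so the features were also ranked within each array. On young bone replicate 2 the first Dcn feature lay at percentile 99.9, Lum at percentile 99.5 and Cdh11 at percentile 96.8, with the second Dcn feature at percentile 84.4 and Ogn at percentile 78.2. On old replicate 3 the first Dcn feature lay at percentile 99.2 and Ogn at percentile 98.8, with the second Dcn feature at percentile 90.7, Cdh11 at percentile 88.4 and Lum at percentile 61.7. Old replicate 1 split them, with Lum at percentile 93.7, Ogn at percentile 70.5, the first and second Dcn features at percentiles 33.04 and 16.1, and Cdh11 at percentile 1.56. All 5 stood in the upper part of young bone replicate 2 and old replicate 3, whereas Lum and Cdh11 were at opposite ends of old replicate 1. Young bone replicate 2 was the highest array with a value for 4 of the 5 features, and for 7.41% of all features with 9 values. Old replicate 1 was the lowest for 3 of the 5, and for 29.4% of all features with 9 values. Both Dcn features are in each count, belong to the same gene and had 8 values each, so these shares compare unlike sets.

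Across arrays, Cdh11 and the second Dcn feature followed each other most closely of the 10 pairs. Their Pearson r was 0.95 and their Spearman rho 0.93 over 8 arrays, and r was 0.91 over the 6 arrays left without old replicate 1 and young bone replicate 2. Cdh11 and the first Dcn feature had an r of 0.72 over 8 arrays and 0.23 over those 6. The Dcn features had an r of 0.68 with each other over 7 arrays and 0.30 over 5. Lum did not follow Cdh11: r was -0.20 over 9 arrays. It was 0.59 without old replicate 1, and leaving out young bone replicate 2 instead gave -0.84, so that each of these arrays could set its sign. The r of Lum with the first Dcn feature was 0.34 over 8 arrays, 0.77 without old replicate 1 and, leaving out young bone replicate 2 instead, -0.37. With Ogn it was 0.19 over 9 arrays and 0.21 without both arrays. These are descriptions over few arrays that share 3 groups and 2 dye layouts, and no test was made.

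Among the singly named features with values on all 9 arrays, 3 were named for each gene by the highest Pearson r of the deposited ratios. For Lum these were Supv3l1 (0.96), a mitochondrial RNA helicase, Zfand3 (0.96), a zinc finger protein, and Rabggta (0.95), a subunit of the enzyme that prenylates Rab proteins, over 9 arrays and 5568 features compared. For the first Dcn feature they were Rcn1 (0.91), a calcium-binding protein of the endoplasmic reticulum, Smim14 (0.91), a small membrane protein, and Col1a2 (0.90), a chain of type I collagen, over 8 arrays. Without old replicate 1 and young bone replicate 2 their r was 0.58, 0.83 and 0.54 over 6 arrays. For Ogn they were the small GTPase Rac1 (0.93), Garre1 (0.91) and the mitophagy receptor Bnip3 (0.89), and for Cdh11 Spred1 (0.97), an inhibitor of Ras signalling, Smad4 (0.95), the common Smad of TGF-beta and BMP signalling, and the proton pump subunit Atp6v1h (0.94), all over 9 arrays. Over the 7 arrays left without old replicate 1 and young bone replicate 2, r was 0.82 to 0.88 for the genes like Lum and 0.91 to 0.96 for those like Ogn, and 0.84 for Spred1, 0.69 for Smad4 and 0.76 for Atp6v1h with Cdh11. With the swapped arrays turned, it was 0.64 for Rac1 with Ogn and 0.59 for Atp6v1h with Cdh11, and 0.78 or more for the other 10 pairs. The highest of so many correlations over 9 arrays are high by selection.

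In the RefSeq annotation of GRCm38.p6, Dcn, Lum, Kera and Epyc stood next to each other, and Ogn followed Ecm2, Aspn and Omd, which also encode leucine-rich repeat proteins of the matrix. Cdh11 stood between Cdh8 and Cdh5. Of these neighbours, Kera and Cdh5 had a singly named feature. Kera, encoding the corneal proteoglycan keratocan, had values on 4 arrays, -0.15 on old replicate 3 and -0.03, 0.17 and 0.16 on young bone replicates 1, 2 and 3, and was not tested. The values on young bone replicates 2 and 3 lay close together, and 4 arrays do not show whether Kera followed Lum or Dcn.

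The wider family and the partners of the 4 genes were described from lists of genes. A gene with several features was counted once, at the mean of its fitted ratios, and as passing if any feature passed. The same held at the unadjusted threshold, so a gene with several features was counted more readily than a single feature. Over all features tested, 18.2% passed that threshold in the old group, 8.78% in young bone, 10.5% in young marrow and 16.2% in the average. A ratio given for a named list gene is that of its feature with the smallest p, unless stated otherwise. Of 17 small leucine-rich proteoglycan genes, 4 had a singly named feature and 3 were tested, which were Lum, Dcn and Ogn, and 0 of them passed in any group, with Dcn in young bone under an unadjusted p of 0.05. Of 20 cadherin and catenin genes, which form and anchor adherens junctions, 10 were tested and 0 passed in any group, with 1 in the old group, 0 in young bone and 2 in young marrow under an unadjusted p of 0.05. In the average of the groups their median was -0.05, with 3 above and 7 below 0. Those with the smallest p were Ctnnd2 (-0.18, limma adjusted p = 0.276), a neural catenin, and the cadherins Cdh4 (-0.15, adjusted p = 0.397), Cdh1 (-0.11, adjusted p = 0.403) and Cdh15 (-0.09, adjusted p = 0.510). Other features lay at -0.14 for Ctnnd2, at 0.03 and -0.01 for Cdh4, and from -0.09 to 0.01 for Cdh1. The features of Cdh4 and of Cdh1 thus lay on both sides of 0. At an unadjusted p under 0.05, 1 of the 10 passed.

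The 24 genes of proteoglycan chain synthesis, which supply sugars and sulphate and build the chondroitin and dermatan chains, gave 6 tested genes, of which 0 passed in any group. Under an unadjusted p of 0.05 were 1 in the old group, 2 in young bone, 2 in young marrow and 2 in the average. Their median in the average was -0.05. Ugdh, which makes the UDP-glucuronate used for the chains, was below 0 on all 8 arrays with a value, with a fitted average of -0.31 (SE 0.09, limma adjusted p = 0.0826) and, under the channel reading, -0.04. The share of all features below 0 on every array was not counted. In refits the Ugdh average passed with no dye term (-0.32, limma adjusted p = 0.0224) and with array weights (-0.32, adjusted p = 0.011). It was -0.40 without old replicate 3. With array weights, many more of all features passed in the average than in the main fit. The share of all features passing with no dye term is not given here. The sulphotransferase Chst15 had an average of 0.19 (adjusted p = 0.201), the sulphotransferase Chst11 -0.15 (adjusted p = 0.425) and the dermatan epimerase Dse -0.13 (adjusted p = 0.536). The other Chst11 feature was at -0.08.

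The list of fibril collagens and their binding and processing partners had the most tested genes, 13 of 23. Of these 7 encode collagen chains, and the other 6 are Sparc, Fn1, Serpinh1, Lox, Loxl1 and Plod2. In young bone 11 of the 13 were above 0 with a median of 0.27, against -0.01 for all features tested, and 0 passed (6 under an unadjusted p of 0.05). By the channel reading 8 were above and 5 below 0, the median was 0.07 and 0 were under an unadjusted p of 0.05. The smallest p were those of Col1a1 (0.77, limma adjusted p = 0.317) and Col1a2 (0.82, adjusted p = 0.378), the chains of type I collagen, Fn1 (0.33, adjusted p = 0.360), encoding fibronectin, and Serpinh1 (0.68, adjusted p = 0.400), the collagen chaperone. Col1a2 read -0.33, 0.22 and 0.65 on old replicates 1, 2 and 3, against 0.34, 2.07 and 0.26 on young bone replicates 1, 2 and 3, and 0.37, 0.17 and 0.77 on young marrow replicates 1, 2 and 3. Like the first Dcn feature, Col1a2 was highest on young bone replicate 2 and lowest on old replicate 1. It was among the genes picked above by their r with that feature, so this likeness follows in part from selection. The list median on each array was -0.25, 0.07 and 0.18 in the old group, 0.03, 0.50 and 0.19 in young bone, and 0.05, 0.13 and 0.32 in young marrow. Col1a1 read 0.42, 1.74 and 0.32 on young bone replicates 1, 2 and 3. In young bone the list median, Col1a1 and Col1a2 were thus each highest on replicate 2. Fitted ratios of the list in young bone without that array are not given here.

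In the average of the groups, 1 of the 13 genes of the collagen and partner list passed, with a list median of 0.09. This was Col6a1, a chain of the beaded type VI collagen, at 0.43 (SE 0.08, limma adjusted p = 0.0170), above 0 on 7 of 9 arrays. It no longer passed without old replicate 2 (0.40, adjusted p = 0.129) or with young bone replicate 3 left out (0.41, adjusted p = 0.101). Nor did it pass without young marrow replicate 1 (0.41, adjusted p = 0.0568) or 2 (0.48, adjusted p = 0.0708). Under the channel reading Col6a1 was at -0.03 (adjusted p = 0.948). The next were Col3a1 at 0.36 (adjusted p = 0.0982), Col1a1 at 0.46 (adjusted p = 0.134) and Serpinh1 at 0.41 (adjusted p = 0.192). The other Col3a1 features were at 0.245 and 0.218. In young marrow 1 of the 13 passed in the other direction, Fn1, with a log ratio below 0 on all 3 arrays and a fitted ratio of -0.67 on its feature with the smallest p (adjusted p = 0.0183). Fn1 did not pass without any 1 of the young marrow arrays, where its ratio lay between -0.70 and -0.64 (adjusted p from 0.148 to 0.324), nor under the channel reading (-0.26, adjusted p = 1). In the old group 0 of the 13 passed, 4 were under an unadjusted p of 0.05, and the median was 0.00.

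**Figure D5:**
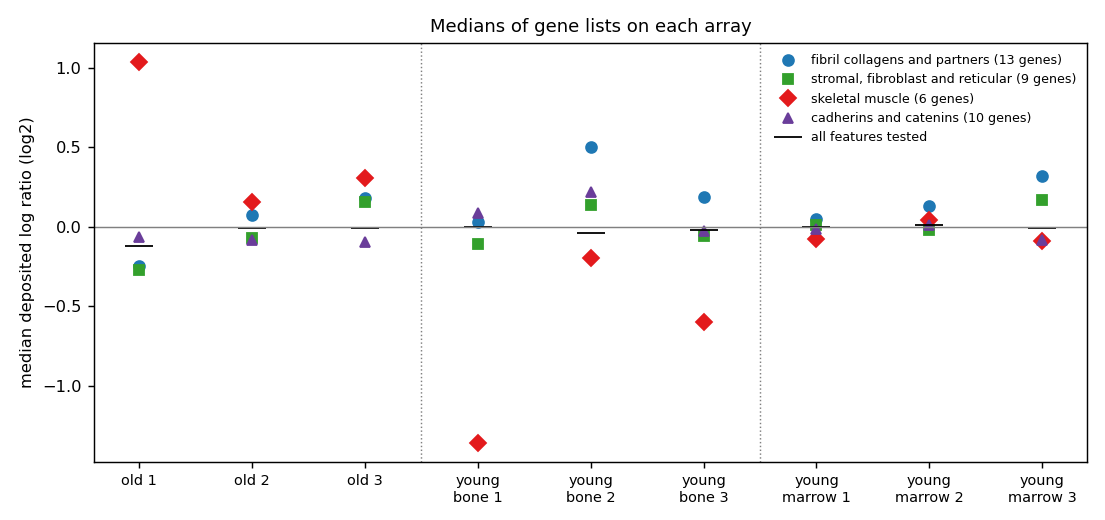
Median deposited log ratio (vertical axis, log2) of the genes of 4 lists on each array of the old, young bone and young marrow groups, with black dashes for the median of all features tested. The skeletal muscle median runs from -1.36 to -0.20 in young bone and from 0.16 to 1.04 in the old group, while the stromal median stays between -0.27 and 0.17.

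Markers of other cell types were set beside these ratios. The 6 skeletal muscle genes tested were all above 0 in the old group (median 0.55) and all below 0 in young bone (median -0.70), and in young marrow 2 were above and 4 below 0 (median -0.08). Of them 0 passed in each group, with 3, 6 and 0 under an unadjusted p of 0.05. The channel reading gave medians of 0.41 in the old group, -0.21 in young bone and -0.07 in young marrow, with all 6 on the same side of 0 in the old group and in young bone, and 0 under an unadjusted p of 0.05 in each group. Their median was 1.04, 0.16 and 0.31 on old replicates 1, 2 and 3, against -1.36, -0.20 and -0.60 on young bone replicates 1, 2 and 3, and -0.08, 0.04 and -0.09 on young marrow replicates 1, 2 and 3. On young bone replicate 2, where Lum, Cdh11 and both Dcn features were highest, the muscle median was the one closest to 0 of its group. On old replicate 1, where Lum was high and Cdh11 low, it was the highest of the 9 arrays. The part of muscle RNA in the results above was not tested.

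Of 9 stromal, fibroblast and reticular genes tested, 0 passed in each of the 3 groups (1, 1 and 5 under an unadjusted p of 0.05 in the old, young bone and young marrow groups), with medians of -0.10 in the old group, -0.01 in young bone and 0.03 in young marrow. In the average 1 passed, Kitl, encoding the ligand of the receptor Kit, at -0.36 on 1 of its features (limma adjusted p = 0.0390) and 0.15 under the channel reading. Its other feature was at 0.13 in the average, and in young marrow at 0.34 against -0.32, so the features of Kitl disagreed in sign. The call was also lost with median centring (-0.34), with no dye term (-0.31) and on unswapped arrays alone (-0.21). It did not pass without old replicate 2 (-0.34), young bone replicate 2 (-0.32) or 3 (-0.38), or young marrow replicate 1 (-0.31) or 2 (-0.36), where the adjusted p was 0.0731 to 0.215. The 5 B lymphocyte genes tested had median fitted ratios of 1.06 in the old group, 0.80 in young bone and 0.997 in young marrow, and 0.04, -0.03 and 0.11 under the channel reading. Of them 5, 4 and 5 passed, all above 0. The 4 granulocyte genes had medians of -0.49 in the old group, -0.41 in young bone and -0.50 in young marrow (-0.03, -0.035 and -0.05 under the channel reading). Of these 1, 0 and 1 passed, below 0. The 4 adipocyte genes had medians of 1.08 in the old group, 0.73 in young bone and 0.33 in young marrow (0.28, 0.07 and -0.06 under the channel reading). Here 3, 1 and 1 passed, above 0. Over all features 0.732%, 0.259% and 0.844% passed in these groups. In the average every tested gene of the B lymphocyte, granulocyte and adipocyte lists passed, beside 4.04% of all features. Under the channel reading 0 of them passed. The part of these cell types in the ratios of Lum, Dcn, Ogn and Cdh11 was not tested.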

How the data were processed

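The deposited table held log2 ratios of dual-channel arrays, with the log base taken as 2; background treatment, normalization and ratio direction are not given in the sources used. Per the labels' protocols, total RNA came from pulverized bone and was labelled as aminoallyl cDNA. The source labels of the old and young marrow groups name bone marrow. Features were named through the platform annotation: 8050 of 11552 had 1 symbol, 672 several and 2830 none, and 7880 of the 8050 matched the mouse gene table by gene ID. No scaling was added. limma 3.58.1 (R 4.3.3) was fitted to features present on 2 or more arrays in each group and on 1 or more swapped arrays. Its terms were the 3 groups and 1 dye effect shared by them. The fit had 5 residual and 5.666 prior degrees of freedom, and the Benjamini-Hochberg adjustment ran over 8885 features. For features with a missing value the fit used the arrays present. The number of arrays limits the precision.

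The genes, the gene lists and the tests were chosen with earlier results of these data known. Named genes were every feature of the 4 genes, the 3 most correlated genes of each, and the 4 genes of each list with the smallest p in the comparison described, plus list genes past the threshold. The fit was tried on simulated ratios, with changes set into young bone alone. These changes were larger than any fitted ratio of the 4 genes in a group, and each feature had the same spread on every array. The trial thus does not cover the smaller ratios and unequal arrays seen here. Replicate numbers were checked as pairs: deviations of same-numbered old and young marrow arrays correlated at 0.60, 0.27 and 0.30. The deviations of a group sum to 0, so these values are not independent, and the dye layout follows the number in both groups. The difference of replicates 1 and 3, unswapped in both, correlated at 0.47 between them. What same-numbered arrays share was not tested. For young bone and young marrow, whose swapped arrays differ in number, the values were -0.09, -0.37 and -0.08. Alternatives were the channel reading, median centring, scaling by the median absolute deviation, no dye term, unswapped arrays alone, array weights, a replicate block, a stricter filter and leaving out each array.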

Additional observations from a re-analysis of the deposited data

How the results depend on the processing

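With 3 arrays in each group and 1 feature for most of the genes, the fits could not separate ratios of the size seen from 0, and signal over background is unknown. No member feature passed in the main fits. Of the 654 refits of their 40 values, 603 kept the direction and the side of the threshold, 47 changed sign and 4 came to pass. Those 4 were Lum in the old group and in old minus young marrow, so that the count of features passing moved from 0 to 1 in each, with array weights (0.48, adjusted p = 0.0401, and 0.62, adjusted p = 0.0243) and without old replicate 3. In the same refits of old minus young marrow 1975 and 885 of all features passed, against 0 in the main fit. Leaving out 1 array at a time thus gave 0 to 1 passing in both. The array weights ran from 0.348 to 5.14, and their estimation stopped before it converged. The cause was not tested.
Under the channel reading the sign turned for Lum in young marrow (0.041) and in old minus young bone (-0.24), the first Dcn feature in old minus young marrow (-0.15), the second in young marrow (-0.085), in the average (-0.012), in old minus young marrow (0.019) and in its dye term (0.048), and Ogn in young bone (0.057). Among other genes named it turned for Cdh1 (0.018), Cdh15 (0.062), Chst15 (-0.065), Col6a1 (-0.034), Serpinh1 (-0.028) and Kitl (0.15), all in the average. On unswapped arrays alone it turned for Lum in old minus young bone (-0.08), the second Dcn feature in young marrow (-0.01) and Ogn in young bone (0.05). With array weights it turned for the first Dcn feature in young marrow (-0.043) and the dye term of Cdh11 (-0.013). Median centring gave 0.0073 for the second Dcn feature in the old group and 0.0082 for its dye term, and scaling as well gave 0.058 and 0.02. The replicate block changed no call (lowest adjusted p 0.0604, the first Dcn feature in young bone) and turned the sign of the first Dcn feature in young marrow (-0.31) and of the second in young bone minus young marrow (-0.047) and in its dye term (0.13).
Leaving out 1 array at a time turned the sign within these ranges: Lum from -0.06 to 0.44 in young bone and from -0.058 to 0.46 in old minus young bone; the first Dcn feature from -0.036 to 0.096 in young marrow, from -0.045 to 0.44 in the old group and from -0.075 to 0.41 in old minus young marrow. The second Dcn feature ran from -0.037 to 0.19 in young marrow, from -0.18 to 0.14 in the old group, from -0.067 to 0.18 in young bone minus young marrow, from -0.26 to 0.06 in old minus young marrow, from -0.33 to 0.021 in old minus young bone and from -0.061 to 0.048 in its dye term. Ogn ran from -0.12 to 0.03 in young bone, from -0.014 to 0.045 in young marrow and from -0.16 to 0.0073 in young bone minus young marrow. Cdh11 ran from -0.34 to 0.13 in the old group, from -0.082 to 0.21 in young bone minus young marrow and from -0.039 to 0.10 in its dye term.
Over all features, 65 passed in the old group, 23 in young bone, 75 in young marrow and 359 in the average. Array weights gave 1594, 130, 2005 and 1599, the channel reading 0 in each, and unswapped arrays alone 13, 1, 3 and 86. Scaling gave 14 in the old group, 1 in young bone and 160 in young marrow, and the replicate block 52 in young bone and 119 in young marrow. Leaving out 1 array at a time gave 10 to 1332, 1 to 80, 0 to 138 and 96 to 574. With array weights 6 of the 13 genes of the collagen and partner list passed in the average, 3 in the old group, 1 in young bone and 7 in young marrow.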
